A study of Danio rerio with 23 samples.

Results

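The genes that carry cargo between the endoplasmic reticulum (ER) and the Golgi were followed through 8 groups of irradiated zebrafish livers. They were taken by gene symbol from the annotation of the array, a rule that uses no measured value although the gene set was chosen with earlier results of these data known: the coat and exit-site genes of COPII, the coat genes of COPI, the p24 (tmed) and other cargo receptors, the KDEL receptors, the SNAREs of these membranes, the TRAPP tether, the golgins and GRASP proteins, and the Yip1 family. The rule found 90 of the 20908 genes that have a probe set of their own, and each is represented here by its brightest probe set. By role they were 16 COPII and exit-site genes, 9 COPI genes, 10 p24 genes, 10 other receptors and retrieval genes, 11 SNAREs, 15 TRAPP genes, 11 Golgi matrix genes and golgins, and 8 Yip1 genes. Each role was assigned from the symbol alone. All 90 were tested with no filter on low values, and golga7ba was dimmer than the middle of the array in 6 of the 8 groups and golga7bb in 1. The genes sec24a and bet1 were present only on probe sets shared with a neighbouring gene and were not analysed here.

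Secretory proteins leave the ER in vesicles coated by COPII, which forms where the GTPase Sar1 is switched on and gathers cargo at exit sites marked by Sec16. COPI vesicles bring escaped ER residents and spent receptors back from the Golgi, tethers such as TRAPP catch the incoming vesicle, and SNARE proteins fuse it with its target. Hepatocytes export most plasma proteins and lipoproteins through this route, and in egg-laying females also vitellogenin, the yolk precursor made in the liver in response to oestrogen. The roles given below for single genes are those of their yeast or mammalian counterparts.

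The study asked whether Oligo-Fucoidan (OF), a low-molecular-weight sulfated polysaccharide from brown seaweed, given before irradiation, changes the response of the liver. RNA of liver tissue from 6-month-old fish was hybridised to 23 1-colour arrays, and the values used are log2 signals. In batch 1, irradiated with 40 Gy, there were wild-type (WT) fish on a normal diet without OF (2 arrays) and with OF (2 arrays), and HBx,src fish made obese by overfeeding without OF (3 arrays) and with OF (4 arrays). In batch 2, irradiated with 10 Gy, there were WT fish on a normal diet without OF (2 arrays) and with OF (2 arrays), and obese HBx,src,p53- fish without OF (3 arrays) and with OF (5 arrays). OF was given by gavage at 300 mg/kg before irradiation, and the methods of the study also describe gavage after it. HBx,src fish carry the hepatitis B virus X antigen and src under a hepatocyte promoter, and HBx,src,p53- fish carry in addition a heterozygous loss of p53. All groups were irradiated, so no effect of irradiation can be read, and dose and batch coincide, so groups were compared within a batch only. The transgenic fish differ from WT fish in genotype and diet together, and the transgenic fish were stated to be female while the sex of the WT fish was not given. The labels do not say that the arrays of a group came from separate fish, so the p-values measure the spread between these samples, which may be technical.

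The arrays carried the signal of liver: the mean log2 signal of 16 hepatocyte genes lay between 11.74 and 12.66 in every array. The other markers did not stay level. The mean log2 signal of 6 vitellogenins and the oestrogen receptor esr1 was 3.87 to 3.93 in WT 40 Gy, 5.51 to 5.68 in WT OF + 40 Gy, 10.72 to 11.7 in HBx,src 40 Gy and 11.13 to 12.08 in HBx,src OF + 40 Gy. In batch 2 it was 11.76 to 12.55 in WT 10 Gy, 3.25 to 4.39 in WT OF + 10 Gy and 12.62 to 12.65 in HBx,src,p53- 10 Gy, whereas in HBx,src,p53- OF + 10 Gy it was 4.81, 12.42, 12.42, 5.73 and 12.45, so that replicates 1 and 4 stood apart from the other 3. The 20 oocyte genes measured averaged 6.33 to 6.56 (log2) in WT 10 Gy and 3.5 in HBx,src 40 Gy replicate 3, against 1.91 to 2.93 in every other array and array medians of 2.02 to 2.58. In HBx,src 40 Gy replicate 3, the oocyte histone gene h1m read 6.05 and the egg envelope gene zp2.1 read 5.91, against 2.13 and 1.48 in replicate 1 and 1.92 and 1.44 in replicate 2. RNA of egg-cell genes was thus present in both WT 10 Gy arrays and, at a lower level, in this array. In bulk tissue, fewer cells of a type and less RNA per cell cannot be told apart.

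The transport genes stood highest in the liver of HBx,src,p53- fish given 10 Gy without OF. The median log2 signal over the 90 genes was 7.54, 7.21 and 7.47 on these 3 arrays. It was 6.72, 6.49, 6.61, 6.71 and 6.62 on the 5 HBx,src,p53- arrays with OF, 6.42 and 6.37 in WT 10 Gy, and 6.61 and 6.96 in WT OF + 10 Gy. At 40 Gy it was 5.60 and 5.77 in WT fish, 6.22 and 6.27 with OF, 5.35, 5.99 and 5.88 in HBx,src fish and 5.77, 5.75, 6.17 and 5.83 with OF. For 46 of the 90 genes (51.1%) all 3 HBx,src,p53- 10 Gy arrays lay above the other 9 arrays of the batch, against 5.62% of all genes, and for none did they all lie below, against 4.15%. In each of the 8 roles the 3 HBx,src,p53- 10 Gy arrays had the highest medians, but the size of the gap differed. The order of the other groups was not shared: the p24 median was 6.75 and 7.34 in WT 10 Gy and 6.37 and 6.81 in WT OF + 10 Gy. The COPI median ran from 8.46 to 8.78 on the 3 arrays and from 6.62 to 7.09 on the 5 OF arrays of the same genotype, whereas the TRAPP median ran from 5.88 to 5.98 and from 4.94 to 5.64.

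**Figure D1:**
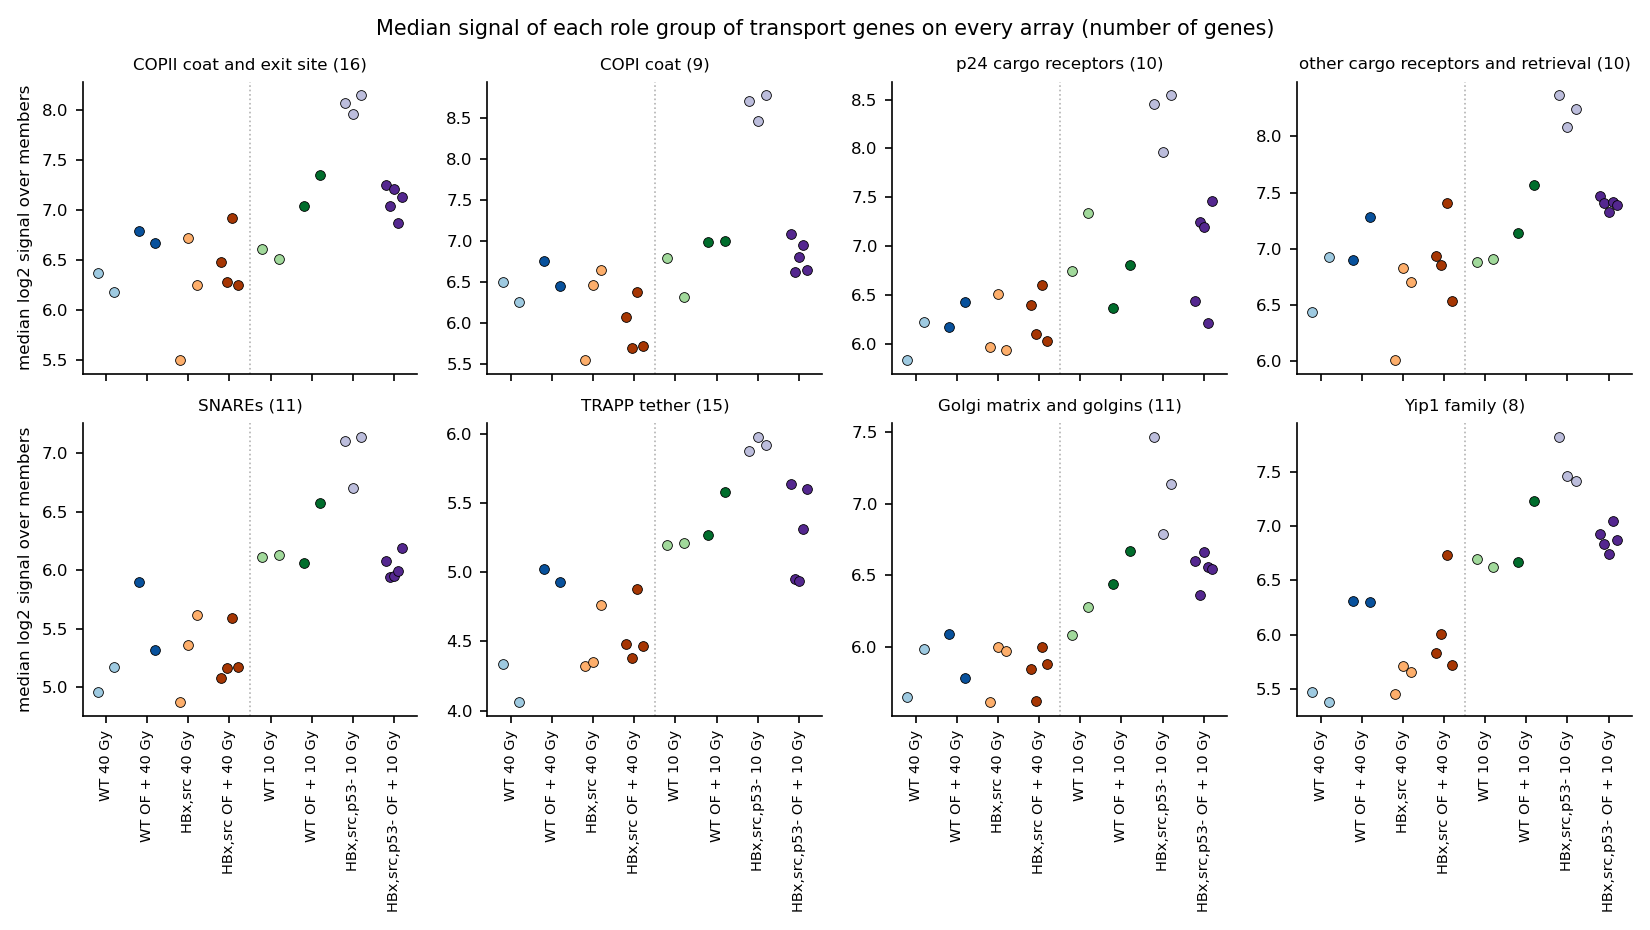
Median log2 signal of each role group (8 panels, number of genes in brackets) on each of the 23 arrays, with 1 point per array and a dotted line between the 40 Gy and 10 Gy batches. Within the 10 Gy batch, the 3 HBx,src,p53- 10 Gy arrays hold the highest points in every panel. Within the 40 Gy batch, HBx,src 40 Gy replicate 1 is the lowest COPI point at 5.55.

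In HBx,src,p53- fish given 10 Gy, the transport genes were lower with OF. Of the 90 genes, 34 fell and none rose at an adjusted p under 0.05, whereas 3.29% of all genes were called lower and 2.51% higher (5.8% in either direction). The median log2 difference was -0.75 over the 90 genes and 0.00 over all genes, and 11 of the 90 differences were positive. For 55 genes every OF array lay below every array without OF (8.57% of all genes), and for 1 every OF array lay above (9.18%). Each adjusted p in what follows comes from the limma fit of all 23 arrays and was adjusted over all 75212 probe sets, and each error is a standard error (SE).

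The COPI coat had the most negative median of the 8 roles (-1.64), and 8 of its 9 genes fell. The β subunit copb1 read 10.53, 10.28 and 10.52 without OF and 8.54, 7.73, 8.22, 8.34 and 8.04 with OF. The α subunit copa read 9.06, 8.90 and 9.09 without OF and 7.52, 7.13, 7.27, 7.11 and 7.16 with OF. The γ subunit copg2 read 8.71, 8.46 and 8.78 without OF and 7.09, 6.62, 6.81, 6.95 and 6.65 with OF. In each of these 3 subunits the lowest array without OF was more than 1 log2 unit above the highest array with OF. The differences were -2.27 ± 0.27 for copb1 (adjusted p = 0.000221), -1.77 ± 0.19 for copa (adjusted p = 0.000109) and -1.83 ± 0.28 for copg2 (adjusted p = 0.00193). The β′ subunit copb2 fell by 1.64 ± 0.23 on the log2 scale (adjusted p = 0.000706), the ε subunit cope by 1.55 ± 0.26 (adjusted p = 0.00312) and copz1, a ζ subunit, by 1.17 ± 0.24 (adjusted p = 0.0126). Both genes for the δ subunit fell, arcn1a by 1.73 ± 0.34 (adjusted p = 0.0093) and arcn1b by 0.81 ± 0.19 (adjusted p = 0.0234). The other ζ subunit gene, copz2, read 6.50, 5.84 and 7.02 without OF and 6.68, 5.46, 6.12, 6.37 and 5.88 with OF, a difference of -0.35 ± 0.41 that did not pass (adjusted p = 0.771), and the difference between the paralogues was not tested.

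**Figure D2:**
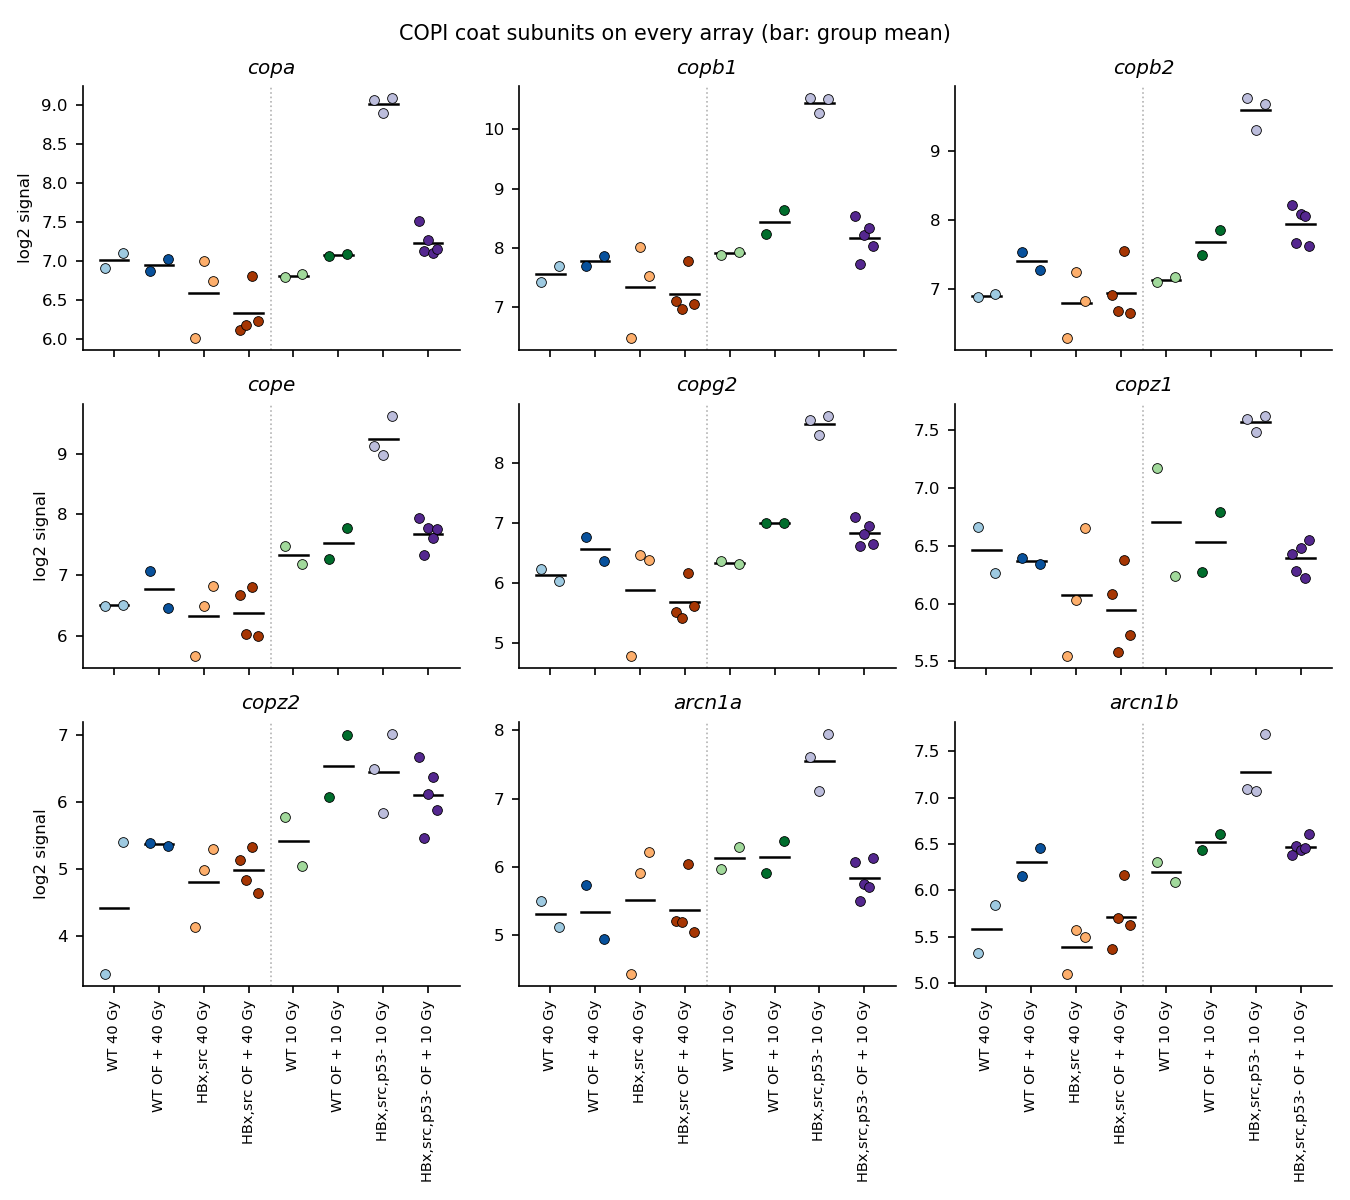
Log2 signal of the COPI subunits on every array, 1 panel per gene, with 1 point per array, a bar at each group mean and a dotted line between the 40 Gy and 10 Gy batches. For copb1 the 3 HBx,src,p53- 10 Gy arrays sit between 10.28 and 10.53 and the 5 with OF between 7.73 and 8.54.

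Of the 16 COPII and exit-site genes 4 fell. The outer cage is built of Sec13 and Sec31. Signals of sec13 were 8.79, 8.40 and 8.86 without OF and 6.89, 6.09, 6.01, 6.63 and 6.42 with OF, and those of sec31a were 9.27, 9.29 and 9.14 without OF and 7.42, 7.37, 7.62, 6.96 and 7.62 with OF. The arrays of the 2 groups were well separated in both, and the differences were -2.28 ± 0.32 (adjusted p = 0.000782) and -1.84 ± 0.34 (adjusted p = 0.00632). The exit-site scaffold sec16a fell by 1.17 ± 0.17 (adjusted p = 0.000866). In the inner coat, which binds cargo, sec23a read 7.90, 7.45 and 7.60 without OF and 6.94, 6.06, 6.49, 6.78 and 6.72 with OF and fell by 1.05 ± 0.24 (adjusted p = 0.0193). Its paralogue sec23b read 8.89, 7.96 and 8.95 without OF and 9.68, 8.81, 9.29, 9.72 and 9.57 with OF, a difference of 0.82 ± 0.27 in the other direction that did not pass (adjusted p = 0.124). The cargo-binding subunits had differences of -0.60 ± 0.22 for sec24b (adjusted p = 0.169), -0.81 ± 0.29 for sec24c (adjusted p = 0.151) and -1.13 ± 0.32 for sec24d (adjusted p = 0.0645), none past the threshold. SEC16B, the other Sec16 scaffold, differed by 0.23 ± 0.29 (adjusted p = 0.788).

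Among the receptors that load and retrieve cargo, 6 of the 10 genes outside the p24 family fell, with a group median of -1.25. The lectin lman1, which carries glycoproteins out of the ER, had 11.82, 11.98 and 11.78 without OF and 8.56, 10.37, 10.06, 8.13 and 10.16 with OF. All 5 OF arrays were lower, and replicates 1 and 4, those with low vitellogenin, were lowest. The difference was -2.41 ± 0.44 (adjusted p = 0.00546). The receptor gene surf4l, a homologue of the cargo receptor Surf4, had 10.56, 9.94 and 10.28 without OF and 8.20, 7.85, 7.99, 7.73 and 8.16 with OF, a difference of -2.28 ± 0.50 (adjusted p = 0.0172), whereas surf4 itself had 7.76, 7.67 and 7.75 without OF and 7.40, 8.27, 8.09, 7.59 and 7.64 with OF (difference 0.07 ± 0.22, adjusted p = 0.933). The KDEL receptors, which return escaped ER chaperones, fell in all 3 genes measured: kdelr3 by 1.97 ± 0.37 (adjusted p = 0.00645), kdelr2b by 1.56 ± 0.19 (adjusted p = 0.000287) and kdelr2a by 1.09 ± 0.15 (adjusted p = 0.000706). With OF, kdelr3 had 4.85, 5.64, 5.76, 4.64 and 5.63, also lowest in replicates 1 and 4. The retrieval receptor rer1 fell by 1.40 ± 0.27 (adjusted p = 0.00862).

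Of the 10 p24 genes, whose products ride in both kinds of vesicle, 4 fell and the median was -1.0. The signals of tmed10 were 11.29, 11.19 and 11.16 without OF and 9.03, 10.00, 9.74, 9.0 and 9.97 with OF, again lowest in replicates 1 and 4, with a difference of -1.66 ± 0.23 (adjusted p = 0.000829). The gene tmed2 fell by 1.04 ± 0.20 (adjusted p = 0.00714), and tmed3 and tmed9 were the other 2 that passed. The gene tmed1a, singled out after its values were seen, had 8.72, 8.69 and 9.13 without OF and 3.95, 8.38, 7.87, 3.77 and 7.97 with OF, a split of more than 3 log2 units within a group. Its difference of -2.46 ± 0.85 did not pass (adjusted p = 0.137).

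Replicates 1 and 4 of HBx,src,p53- OF + 10 Gy were the arrays with low vitellogenin. They stood apart in other markers too. The mean log2 signal of erythrocyte genes was 5.53 and 5.09 on them and 3.99, 4.15 and 4.41 on replicates 2, 3 and 5. That of hepatocyte genes was 12.59 and 12.57 on them and 12.28, 12.19 and 12.24 on the others. With replicates 1 and 4 left out, an alternative chosen after seeing the data, 22 of the 90 genes were called lower, all of them among the 34. The other 12 stayed lower with adjusted p from 0.0501 to 0.131. They were arcn1b, bet1l, copz1, golga2, gorasp1a, kdelr3, stx5al, surf4l, tmed2, tmed3, tmed9 and use1. Called again were 4 of the 4 COPII genes that fell, 6 of 8 COPI genes, 3 of 3 Yip1 genes and 1 of 1 TRAPP genes. So were 4 of 6 other receptor or retrieval genes, 1 of 3 Golgi matrix genes, 1 of 4 p24 genes and 2 of 5 SNAREs. The roles were not compared by a test. With fewer arrays a lost call need not mean a smaller difference. The difference of surf4l was -2.28 with all arrays and -2.26 without these 2, whereas that of kdelr3 went from -1.97 to -1.59. Leaving out HBx,src,p53- 10 Gy replicate 3 gave 19 calls and leaving out its replicate 1 gave 22. The share of all genes called was not computed for these fits, so a lower count cannot be set against it. The part of vitellogenin, or of the other markers that differ on these 2 OF arrays, was not tested further.

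**Figure D3:**
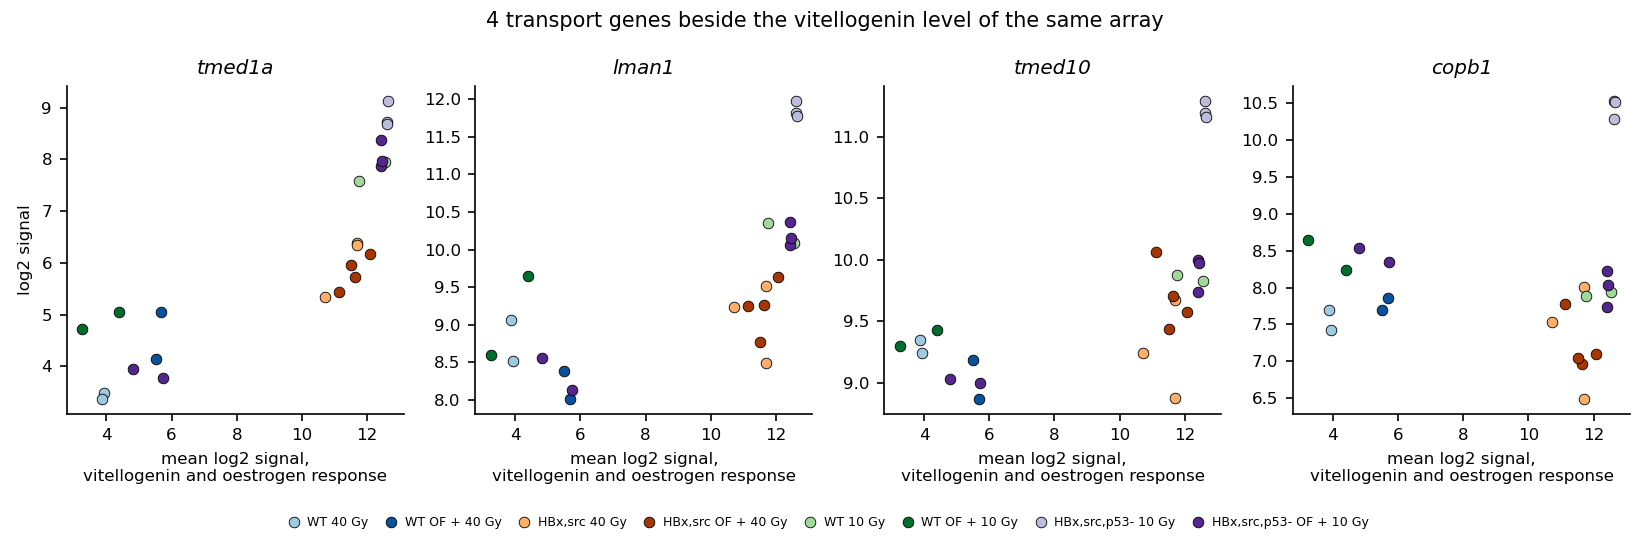
Log2 signal of tmed1a, lman1, tmed10 and copb1 (vertical axes) against the mean log2 signal of 6 vitellogenins and esr1 on the same array (horizontal axes), with 1 point per array and colours for the 8 groups. In HBx,src,p53- OF + 10 Gy, tmed1a was 3.95 and 3.77 on the 2 arrays with low vitellogenin and 7.87 to 8.38 on the other 3, while copb1 was 8.54 and 8.34 on those 2 arrays and 7.73 to 8.22 on the other 3.

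In the fusion and tethering machinery, 5 of 11 SNAREs fell. The R-SNARE sec22ba had 9.49, 8.67 and 9.73 without OF and 6.77, 7.14, 7.01, 7.02 and 7.55 with OF, which did not overlap, and a difference of -2.20 ± 0.23 (adjusted p = 0.000102). The syntaxin stx5al, which receives vesicles at the Golgi, fell by 1.06 ± 0.23 (adjusted p = 0.0173) and use1, a SNARE of the ER, by 1.01 ± 0.25 (adjusted p = 0.0355). Of the Golgi matrix genes 3 of 11 fell. The stacking protein gorasp2 had 9.45, 9.48 and 9.47 without OF and 7.45, 7.15, 6.85, 7.76 and 7.18 with OF, and its difference of -2.19 ± 0.22 had the smallest adjusted p of the 90 genes (5.56e-05). The giant golgin golgb1 did not pass, with -0.25 ± 0.21 (adjusted p = 0.639).

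Of the 8 Yip1 genes, small membrane proteins that bind Rab GTPases, 3 fell. The gene yipf2 had 9.09, 8.66 and 8.99 without OF and 7.24, 7.08, 7.60, 7.10 and 7.59 with OF (difference -1.59 ± 0.28, adjusted p = 0.00487), and yif1a fell by 1.69 ± 0.31 (adjusted p = 0.00556). The TRAPP complex, the tether that activates Rab1, was the group with the smallest median (-0.24). Of its 15 genes only trappc6b fell, with 6.09, 6.03 and 5.75 without OF and 5.61, 4.72, 4.94, 5.12 and 5.49 with OF (difference -0.78 ± 0.20, adjusted p = 0.0374), and 5 of the 15 differences were positive.

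In this comparison hepatocyte genes were called higher with OF in 4 of 16 cases and lower in none, and no oocyte or vitellogenin gene was called. The vitellogenin list still had a median difference of -3.02, with replicates 1 and 4 of the OF group low. Exocrine pancreas genes, 17 measured, had a mean log2 signal of 6.35 to 8.29 without OF and 4.95 to 7.62 with OF, and none was called. Of 11 neutrophil and macrophage genes, 1 was called lower. The 9 erythrocyte genes had a mean log2 signal of 4.2 to 4.57 without OF and 3.99 to 5.53 with OF, and none was called. The part of pancreas RNA, or of the other markers, in the fall of the transport genes was not tested.

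**Figure D4:**
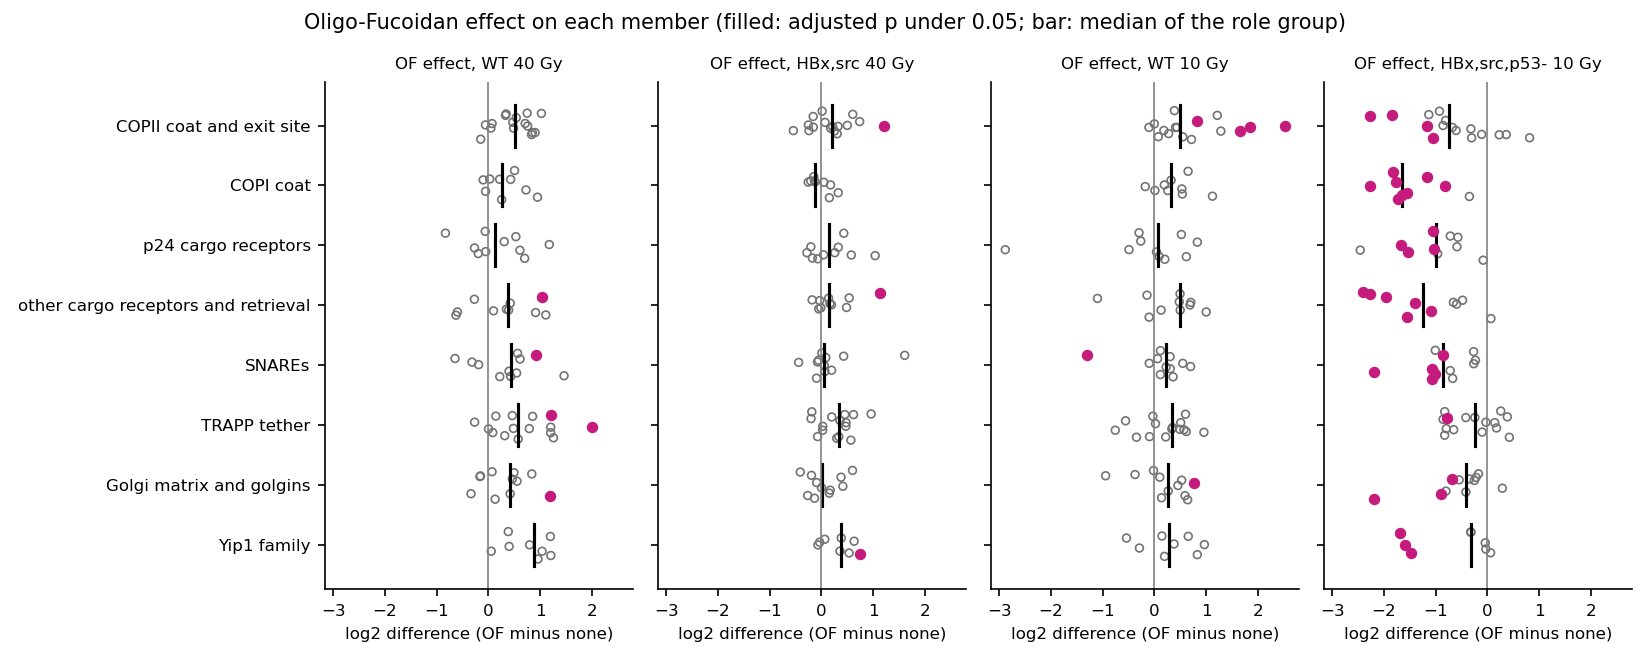
Log2 difference, OF minus no OF, of each of the 90 genes (1 point per gene, filled where the adjusted p was under 0.05) by role, in 4 panels for the 4 comparisons, with a bar at each role median. In HBx,src,p53- fish given 10 Gy the medians ran from -1.64 for COPI to -0.24 for TRAPP, while in the other 3 comparisons no role median was below -0.12.

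WT fish given 10 Gy did not show this fall across the 90 genes, of which 68 had a positive difference. Of the 90 genes 5 rose with OF and 1 fell (2.63% and 6.56% of all genes, 9.18% in either direction), and the median difference was 0.32 against 0.03 over all genes. Of the genes that rose, 4 belong to the COPII group. SEC16B had 6.63 and 6.56 without OF and 9.21 and 9.04 with OF, a difference of 2.53 ± 0.39 (adjusted p = 0.000329). Signals of sec31a were 5.92 and 5.43 without OF and 7.43 and 7.61 with OF (difference 1.85 ± 0.47, adjusted p = 0.0245). Signals of sec24d were 5.96 and 6.25 without OF and 7.42 and 8.09 with OF (difference 1.65 ± 0.44, adjusted p = 0.0354). Each of these had separate arrays in the 2 groups, as had 46 of the 90 genes upward (30.4% of all genes) and 9 downward (26.5%). The scaffold sec16a rose by 0.83 ± 0.23 (adjusted p = 0.0397) and the golgin golga4 by 0.77 ± 0.19 (adjusted p = 0.019), while use1 had 7.14 and 7.03 without OF and 5.85 and 5.70 with OF and fell by 1.31 ± 0.35 (adjusted p = 0.0326). The genes tmed1a and lman1, picked after their values were seen, were also lower with OF but were not called. Signals of tmed1a were 7.59 and 7.94 without OF and 5.05 and 4.72 with OF. Those of lman1 were 10.36 and 10.09 without OF and 9.65 and 8.60 with OF. No COPI gene was called, and copb1 had 7.88 and 7.94 without OF and 8.24 and 8.64 with OF (difference 0.53 ± 0.37, adjusted p = 0.551). The same 2 groups of WT fish, whose sex was not given, also differed in other genes. Called lower with OF were 17 of 20 oocyte genes and 6 of 7 vitellogenin-list genes, and called higher were all 9 erythrocyte genes. With 2 arrays a group, OF and this tissue difference cannot be told apart, and leaving out WT 10 Gy replicate 1, WT 10 Gy replicate 2 or WT OF + 10 Gy replicate 2 left 1 called gene, and WT OF + 10 Gy replicate 1 left 3. Wherever leaving out an array leaves 1 in its group, that lone array was assumed to vary like the other groups, which alone supplied the spread.

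The difference between the OF effects of HBx,src,p53- and WT fish at 10 Gy was tested directly. It was below 0 and past the threshold for 24 of the 90 genes and above 0 for none, against 1.75% and 5.05% of all genes (6.8% in either direction), with a median of -1.07 over the 90 genes and -0.02 over all. They were 5 COPII, 5 COPI and 5 receptor or retrieval genes, 4 Golgi matrix genes, 2 SNAREs, and 1 each of the TRAPP, Yip1 and p24 genes. The largest was sec31a, at -3.68 ± 0.58 (adjusted p = 0.000562), followed by surf4l at -3.28 ± 0.85 (adjusted p = 0.0367) and copb1 at -2.80 ± 0.46 (adjusted p = 0.000853). SEC16B, which rose in WT fish, differed by -2.30 ± 0.48 (adjusted p = 0.00862). Oocyte genes were called in the same test (17 of 20, above 0), so the part of the WT 10 Gy arrays in it cannot be told apart, and without WT 10 Gy replicate 2 or WT OF + 10 Gy replicate 2 the count was 14.

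HBx,src,p53- and WT fish were then compared without OF at 10 Gy, on arrays that the tests above also used. Here 41 of the 90 genes were higher in HBx,src,p53- than in WT fish and none was lower (5.35% and 8.44% of all genes, 13.8% in either direction), and the median difference was 0.99 against 0.01. For 71 genes all 3 HBx,src,p53- arrays lay above both WT arrays (22% of all genes). COPI had 6 of 9 genes called with a median of 1.90, and copb2 had 7.10 and 7.17 in WT and 9.76, 9.30 and 9.68 in HBx,src,p53- fish (difference 2.44 ± 0.28, adjusted p = 9.59e-06). COPII had 8 of 16, led by sec31a with 5.92 and 5.43 in WT and 9.27, 9.29 and 9.14 in HBx,src,p53- fish (difference 3.56 ± 0.42, adjusted p = 1.42e-05). Of the Golgi matrix group 7 of 11 were called, with gorasp2 at 6.90 and 7.14 in WT and a difference of 2.45 ± 0.27 (adjusted p = 6.35e-06). TRAPP again had the fewest, 2 of 15, and a median of 0.19. Genotype, diet and the oocyte RNA of the WT arrays, whose markers were called lower in 17 of 20 cases, cannot be told apart here, and without WT 10 Gy replicate 2 the count was 24.

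With OF before 10 Gy, where the oocyte markers were at 2.05 to 2.3 in both groups, none of the 90 genes differed between HBx,src,p53- and WT fish by limma (1.06% of all genes called, 0.383% higher and 0.674% lower). At an unadjusted p under 0.05, 1 of the 90 was higher and 4 were lower, against 962 and 1295 of all 20908 genes. The median difference was -0.07. All 5 HBx,src,p53- arrays lay above both WT arrays for 4 genes (8.13% of all genes) and below them for 9 (8.8%). The difference was -0.27 ± 0.31 for copb1 (adjusted p = 0.906), 0.16 ± 0.22 for copa (adjusted p = 0.924), 0.15 ± 0.25 for gorasp2 (adjusted p = 0.942) and -0.12 ± 0.39 for sec31a (adjusted p = 0.978). With errors of this size a p above the threshold does not show equal levels. Vitellogenin was low in both WT OF arrays and high in 3 of the 5 HBx,src,p53- OF arrays. The mean log2 signal of erythrocyte genes was 5.99 to 6.01 in WT and 3.99 to 5.53 in HBx,src,p53- fish. That of pancreas genes was 4.03 to 5.02 and 4.95 to 7.62, and no gene of these 2 lists was called. The part of these markers was not tested.

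In WT fish given 40 Gy, 5 of the 90 rose with OF and none fell (4.07% and 0.751% of all genes, 4.83% in either direction), the median difference was 0.45 against 0.07 over all genes, and 71 differences were positive. Both OF arrays lay above both arrays without OF for 48 genes (28.4% of all genes) and below them for 5 (21%). The TRAPP genes trappc1 and trappc6b were among the 5: trappc1 had 4.10 and 2.90 without OF and 5.02 and 5.97 with OF (difference 2.00 ± 0.38, adjusted p = 0.01), and trappc6b had 3.82 and 3.65 without OF and 5.09 and 4.82 with OF (difference 1.22 ± 0.27, adjusted p = 0.0228). The other 3 were golgb1, lman2 and sec22c. The golgin golgb1 had 6.48 and 6.52 without OF and 7.89 and 7.49 with OF (difference 1.19 ± 0.28, adjusted p = 0.0313). The lectin lman2 rose by 1.04 ± 0.27 (adjusted p = 0.0447) and sec22c, placed in the SNARE group by its symbol, by 0.93 ± 0.21 (adjusted p = 0.0228). All 8 Yip1 differences were positive with a median of 0.88, but none passed, and no COPI gene passed (median 0.26). Without WT OF + 40 Gy replicate 2 none of the 90 was called and without WT 40 Gy replicate 1 only 1, and the fit of these 4 arrays alone called none. Markers of other cells also differed between these 2 groups. The mean log2 signal of 12 biliary genes was 5.7 to 6.3 without OF and 6.77 to 7.06 with OF (2 called higher, median difference 1.23), and that of 11 neutrophil and macrophage genes was 2.9 to 2.98 and 3.5 to 4.28 (1 called higher). The 17 pancreas genes had 4.23 to 5.32 without OF and 3.13 to 3.72 with OF (none called, median difference -1.40), and 1 of 9 erythrocyte genes was called lower. Their part in the result was not tested.

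In HBx,src fish given 40 Gy, OF went with a rise of 3 of the 90 genes and a fall of none (2.11% and 0.225% of all genes, 2.34% in either direction), with a median difference of 0.15 against 0.02. The GTPase sar1b, which starts the COPII coat and which chylomicron secretion needs in human gut, had 8.50, 9.03 and 8.96 without OF and 9.86, 10.27, 10.15 and 9.87 with OF, and rose by 1.21 ± 0.24 (adjusted p = 0.0169). The cargo receptor surf4, which carries lipoproteins in mouse liver, had 6.06, 5.98 and 5.58 without OF and 7.26, 7.28, 6.85 and 6.68 with OF, and rose by 1.14 ± 0.23 (adjusted p = 0.0182). The Yip1 gene yipf6 rose by 0.75 ± 0.18 (adjusted p = 0.0489). For these 3 every OF array lay above every array without OF, as for 9 of the 90 genes (9.39% of all genes), and for none did every OF array lie below (5.14%). COPI genes had a median of -0.12 and none passed. The 3 arrays without OF were themselves spread: replicate 1 was the lowest for all COPI genes, with 6.49 for copb1 against 8.01 and 7.53, and preb, the exchange factor for Sar1, was 4.02 against 6.24 and 5.28. Leaving out HBx,src OF + 40 Gy replicate 2 left no call, and HBx,src OF + 40 Gy replicate 1 or HBx,src 40 Gy replicate 3, the array with oocyte RNA, left 1.

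HBx,src and WT fish were also compared at 40 Gy. Without OF only sar1b differed, with 10.37 and 10.30 in WT and 8.50, 9.03 and 8.96 in HBx,src fish (difference -1.51 ± 0.29, adjusted p = 0.0116), and 1.4% of all genes were called lower and 1.29% higher (2.68% in all). At an unadjusted p under 0.05 there were 10 higher and 4 lower, against 1847 and 1710 of all 20908 genes. The vitellogenin list was called higher in HBx,src fish in 4 of 7 genes, and 1 of 9 erythrocyte genes was called lower. Without HBx,src 40 Gy replicate 3 the count of the 90 called was 2. With OF only golgb1 differed, with 7.89 and 7.49 in WT and 6.78, 6.51, 6.87 and 6.37 in HBx,src fish (difference -1.05 ± 0.25, adjusted p = 0.0493), and 1.11% of all genes were called lower and 0.287% higher (1.4% in all). At an unadjusted p under 0.05 there were 3 higher and 18 lower, against 908 and 1965 of all 20908 genes. No gene of the vitellogenin list was called, but the groups were not matched in it. Its median difference was 5.53, and its mean log2 signal was 5.51 to 5.68 in WT and 11.13 to 12.08 in HBx,src fish. In addition, 1 biliary gene and 1 gene of the neutrophil and macrophage list were called lower. The median difference over the 90 genes was 0.01 without OF and -0.26 with OF. The OF effect differed between the genotypes at 40 Gy for none of the 90 genes by limma (0.0526% and 0.172% of all genes called above and below 0, 0.225% in all). At an unadjusted p under 0.05, 3 were above and 6 below 0, against 767 and 1442 of all 20908 genes.

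Other genes of the pathway, in 6 lists chosen with earlier results of these data known, were read from the same fit. In HBx,src,p53- fish given 10 Gy with OF against without, 3.29% of all genes were called lower and 2.51% higher. In this comparison 6 of 9 measured ARF GTPases and regulators fell (median -0.97). The GTPase arf5, of the family that recruits COPI, had 8.93, 8.32 and 8.90 without OF and 6.36, 5.70, 6.33, 6.76 and 6.17 with OF (difference -2.46 ± 0.39, adjusted p = 0.00237), and arl1, a GTPase that recruits golgins, fell by 1.28 ± 0.25 (adjusted p = 0.00873). Of 15 tethers other than TRAPP, 6 fell, and 3 of these were the ER tether genes that receive COPI vesicles: nbas fell by 1.74 ± 0.29 (adjusted p = 0.00283), rint1 by 1.43 ± 0.22 (adjusted p = 0.00199) and zw10 by 1.05 ± 0.27 (adjusted p = 0.0372). Among 14 other SNAREs and fusion factors 2 fell, bnip1a, an ER SNARE that works with this tether, by 1.82 ± 0.32 (adjusted p = 0.00445) and scfd1, the partner of syntaxin 5, by 1.17 ± 0.24 (adjusted p = 0.0121). Of 11 Rab GTPases 3 fell and 1 rose. Those that fell were rab1ba (by 1.44 ± 0.23, adjusted p = 0.00218), rab1ab (by 1.63 ± 0.32, adjusted p = 0.00952) and rab2a (by 0.81 ± 0.21, adjusted p = 0.0436), all of the early Golgi, and the gene that rose was rab6ba (adjusted p = 0.0229). It had 2.16, 2.11 and 2.23 without OF, all below the medians of these arrays (2.52 to 2.56), and 3.40, 2.44, 3.31, 2.86 and 2.98 with OF, so the size of its rise is uncertain. Of 5 genes for the export of procollagen and lipoproteins 2 fell, among them tfg, an exit-site protein, by 1.26 ± 0.24 (adjusted p = 0.00751). The 6 lists were not read without replicates 1 and 4 of the OF group, those with low vitellogenin. On these 2 arrays nbas had 6.60 and 6.58, against 7.37, 7.17 and 7.43 on replicates 2, 3 and 5. No such split was seen for rint1, with 3.70 and 3.85 against 3.81, 3.89 and 3.87.

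Of the 13 transcription factors and regulators 2 fell in that comparison (3.29% of all genes). The unfolded protein response factor xbp1, which drives secretory pathway genes, had 10.22, 9.49 and 9.59 without OF and 6.97, 8.50, 7.38, 7.38 and 9.09 with OF (difference -1.90 ± 0.45, adjusted p = 0.0261), and atf4a fell by 1.37 ± 0.24 (adjusted p = 0.00456). The ER stress sensor atf6 was 2.18 ± 0.39 higher in HBx,src,p53- than in WT fish without OF (adjusted p = 0.00111), with 7.93 and 8.57 in WT and 10.43, 10.32 and 10.54 in HBx,src,p53- fish. In WT fish given 10 Gy, OF went with a rise of creb3l3l, of a hepatocyte ER-bound factor family, from 5.94 and 6.37 to 7.88 and 8.18 (difference 1.88 ± 0.30, adjusted p = 0.000536). This comparison and that of atf6 used the WT 10 Gy arrays with oocyte RNA, and the part of that RNA was not tested. In HBx,src fish given 40 Gy, creb3l3b rose by 1.85 ± 0.35 (adjusted p = 0.0136) and creb3l2, whose mouse counterpart drives sec23a in cartilage, by 1.25 ± 0.30 (adjusted p = 0.048).

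**Figure D5:**
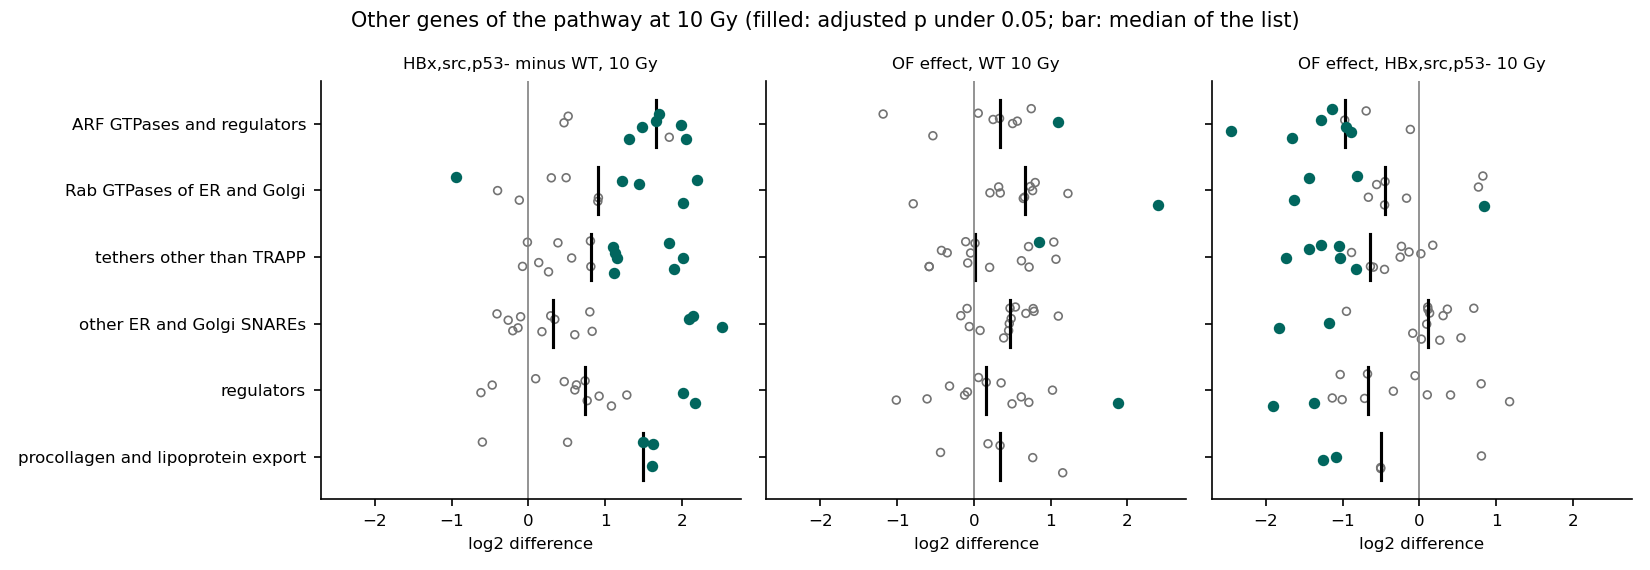
Log2 difference of the other genes of the pathway in 6 lists (vertical axis) for HBx,src,p53- minus WT without OF, for the OF effect in WT fish and for the OF effect in HBx,src,p53- fish, all at 10 Gy, with 1 point per gene, filled where the adjusted p was under 0.05, and a bar at the list median. The ARF list has a median of -0.97 in the right panel, and the list of other SNAREs lies near 0 there with 2 of 14 genes called.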

How the data were processed

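RNA of zebrafish liver was hybridised to 23 1-colour whole-transcript arrays. The deposited values are log2 signals per probe set that the authors produced with the Transcriptome Analysis Console; the sources used here do not give its version, how probes were summarised or which annotation build was used. Of 75212 probe sets, 30358 had 1 gene symbol in the platform annotation, 1015 several and 43839 none here, and only those with 1 symbol were named. Symbols were matched without regard to letter case, which added SEC16B to 89 members. Each gene was read from its brightest probe set over all arrays, and 34 members had several probe sets. In the direct comparisons between groups, no called member with several probe sets had another of opposite sign. The differences between OF effects were not checked in this way. Array medians were 2.02 to 2.21 in batch 1 and 2.46 to 2.58 in batch 2, arrays of a group correlated at 0.898 to 0.965, and no 2 arrays were identical. The number of arrays limits the precision. All per-sample columns were matched to samples.

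The deposited log2 signals were fitted with 8 group means in limma 3.58.1 (lmFit and eBayes, R 4.3.3; 15 residual and 2.398 prior degrees of freedom), p-values were adjusted by Benjamini-Hochberg over all 75212 probe sets and called below 0.05, and the script was tested on simulated data. Tables and plots used Python 3.11.15, numpy 2.4.6, pandas 2.3.3 and matplotlib 3.10.9. The percentages of all genes called are shares of 20908 genes, each by its brightest probe set. Members and lists were chosen with earlier results of these data known. Named with values were up to 10 members called in each direction of a comparison with the largest difference, the 2 members of each role with the smallest p under OF, and the main coat subunits, and other genes named were chosen after their values were seen or come from the 6 pathway lists. The alternatives were fits of the compared arrays alone, a replicate block, other scalings, a filter on dim probe sets, averaging the probe sets of a gene, the study's fold rule (at least a 2-fold change with an unadjusted p below 0.05) and leaving out arrays.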

Additional observations from a re-analysis of the deposited data

Results flagged for a closer look

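The OF effect at 10 Gy differed between HBx,src,p53- and WT fish, by the test of that difference in limma, for 24 of the 90 genes. Each effect was lower in HBx,src,p53- than in WT fish (1.75% of all genes, and 5.05% in the other direction). Of the 24, 19 were also called lower with OF in HBx,src,p53- fish. Oocyte genes were called in the same test (17 of 20), so the part of the WT 10 Gy arrays cannot be told apart. The 10 of these 24 with the largest difference were sec31a (-3.68), surf4l (-3.28), copb1 (-2.80), sec24d (-2.78), kdelr3 (-2.67), sec13 (-2.67), yipf2 (-2.56), copg2 (-2.48), sec22ba (-2.42) and SEC16B (-2.30), as log2 differences of the OF effects. Of these, surf4l and kdelr3 missed the threshold when some single arrays were left out, and sec13 did so without WT 10 Gy replicate 2.

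In HBx,src OF + 40 Gy, replicate 3 was far above its 3 companions for 5 coat genes. Its log2 signal was 6.04 for arcn1a (next highest 5.20), 6.81 for copa (6.23), 7.78 for copb1 (7.10), 6.34 for sec13 (5.32) and 7.66 for sec24d (6.70), and the gap took up a share of 0.835 to 0.927 of the group's range. In HBx,src,p53- OF + 10 Gy, replicate 4 was far below the other 4 for golgb1, at 7.15 against 7.83 for the next, with a share of 0.819. These were 6 of 76 sets of values looked at, and chance alone marks about 1 in 20.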

How the results depend on the processing

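Under the alternatives run, no difference of a named gene that had passed the threshold changed sign, and 43 values of differences that had not passed did so, in OF effects of WT or HBx,src fish. Of the values of single named genes, 1285 kept their side of the threshold, 131 lost it and 6 gained it. The 34 falls under OF in HBx,src,p53- fish became 17 with a replicate block, 22 without the 2 arrays of low vitellogenin and 19 to 32 when single arrays were left out, and 32 to 41 otherwise. The 41 genes higher in HBx,src,p53- than WT fish were 28 to 50, and 24 to 39 with single arrays left out. The 24 differences between OF effects became 44 under the study's fold rule, 16 to 32 otherwise and 14 to 25 with single arrays left out. The 6 calls of OF in WT fish at 10 Gy became 2 in the compared arrays alone, 3 with a replicate block and 1 to 3 with single arrays left out. The 0 calls between HBx,src,p53- and WT fish with OF became 1 without the 2 low-vitellogenin arrays, a setting chosen after seeing the data, and stayed at 0 with single arrays left out. At 40 Gy, the 5 OF calls in WT fish became 0 in the compared arrays alone, 0 with a replicate block, 8 with median centring, 3 with quantile normalization (2.03% of all genes higher and 1.07% lower), 10 with the mean over probe sets, 13 under the fold rule and 0 to 7 with single arrays left out. The 3 OF calls in HBx,src fish became 0 in the compared arrays alone, with a replicate block and with quantile normalization (1.23% of all genes higher and 0.54% lower), 5 with the mean over probe sets and 0 to 3 with single arrays left out. The 1 call between HBx,src and WT fish without OF became 0 in the compared arrays alone, 2 with median centring (1.55% of all genes higher and 1.01% lower), quantile normalization, the dim-probe filter or the mean over probe sets, 6 under the fold rule and 1 to 3 with single arrays left out. The count became 3 without WT 40 Gy replicate 1 or HBx,src 40 Gy replicate 1, and 2 without HBx,src 40 Gy replicate 3. With OF the 1 call became 0 in the compared arrays alone, with a replicate block and with quantile normalization, 2 under the fold rule and 0 to 1 with single arrays left out, where only leaving out HBx,src OF + 40 Gy replicate 3 kept it. The 0 differences between OF effects at 40 Gy became 6 under the fold rule and stayed at 0 with single arrays left out, and quantile normalization called 0.206% of all genes above and 0.297% below 0. Among the alternatives, shares of all genes were computed only for median centring and quantile normalization. A larger or smaller count under another alternative therefore cannot be set against its share. Median centring moved the median OF effect of all genes in WT fish at 40 Gy from 0.07 to 0.21. It called 5.83% of all genes higher and 0.363% lower there. The cause of these changes was not tested. Deviations of samples with the same replicate number correlated only weakly (-0.0997 to 0.155), and the main fit did not pair them. For the OF comparisons at 40 Gy all were positive (0.0479 to 0.155). Values this weak cannot exclude that the numbers pair samples. With 2 arrays in 4 of the 8 groups, small differences were not detectable.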
